A study of Drosophila melanogaster with 18 samples.

Results

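The 2218 transcription initiation sites with the highest serial numbers in a genome-wide list of 13218 sites are described here, against the 11000 sites with lower numbers. The sites were selected on the serial number in their names alone, all those above 11000. They come from STAP-seq in Drosophila melanogaster S2 cells, an embryonic cell line with blood-cell-like properties. In STAP-seq, a reporter plasmid receives short pieces of the genome and the 5′ ends of the reporter transcripts that begin inside them are sequenced, so each site is a base at which a fragment started transcription outside its native chromatin. The list is tied in the labels to 2 samples in which the plasmid carried the enhancer of zfh1, which encodes a transcription factor with zinc fingers and a homeodomain, and to 2 control samples whose plasmid had no enhancer. All 4 samples used fragments of about 100 to 250 bp from embryos of the y; cn bw sp strain whose genome was sequenced. A second list of 753 sites came from a library of BAC (bacterial artificial chromosome) fragments and is tied to 3 zfh1 samples and 1 sample without an enhancer, and was used here as a separate screen of part of the genome.

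A core promoter is the stretch around the start site on which the general transcription machinery and RNA polymerase II assemble. Sequence elements such as the TATA box, the initiator and the downstream promoter element help to place the start, and enhancers raise the output of a core promoter from a distance. In flies, core promoters of developmental genes and of housekeeping genes differ in these elements and respond to different enhancers. A plasmid assay also finds starts that have no role as a gene's promoter in the cell, because the fragment is tested away from its own locus. Each list gives a chromosome, a 1-base position in the dm3 build, a number and a strand, without any measured value and without columns that separate samples. How strong a site was, how it responded to the enhancer, how replicates varied and how deep the libraries were are therefore unknown. Whether the sites were called with the enhancer, without it or in both is not given, and neither is what the number ranks. Also, no genome or annotation of dm3 was used, so no gene, sequence or core promoter motif is given for a site. Intervals below are 95% intervals of counting error across sites, which are not replicates, and sites close to each other depend on each other.

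The threshold of 11000 fell inside a long stretch of the list in which the numbers follow the alphabetical order of chromosome and start position, read as text. That stretch ran from number 10889 to 13206 and held 2318 sites, the longest such stretch in the list. It held 2206 of the sites numbered above 11000, 99.5% of them, and the other 12 were numbered after it. The 112 sites of the stretch that were left out, those numbered up to 11000, all lay on chromosome arm 2L. Just above the threshold, site 11001 lay at 1614150 on the minus strand, site 11002 at 16455651 on the plus strand and site 11003 at 1649005 on the minus strand of 2L. Just below it, site 10998 lay at 16042048 and site 11000 at 16119818, both on the plus strand, and site 10999 at 16113234 on the minus strand of the same arm. Text order puts 16119818 before 1614150, so position on 2L, and nothing else in the list, told these sites apart. The 3 highest numbers belonged to sites outside the stretch, number 13216 at 19284182 on the minus strand of 2R, 13217 at 16882414 on the plus strand of 2R and 13218 at 19558983 on the plus strand of 3R.

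The highest-numbered sites were spread over all 12 chromosome arms and scaffolds of the list, in shares close to those of the other sites on most of them. They made up 16.8% of the whole list. Arm 3R held 564 of them, 2R held 451, 3L held 431, X held 340, 2L held 302 and the small chromosome 4 held 15. They were 18.4% of all 3R sites (17.0 to 19.8), 17.5% of 2R (16.1 to 19.0), 17.1% of 3L (15.7 to 18.6), 16.3% of X (14.8 to 17.9) and 18.1% of chromosome 4 (11.3 to 27.7). These 5 intervals overlap. Arm 2L had the lowest share of the arms, 14.2% (12.7 to 15.7), an interval below those of 2R and 3R that overlaps those of X, 3L and chromosome 4. As a share of each group, 2L held 13.6% of the sites numbered above 11000 and 16.7% of those up to 11000, a difference of -3.04 percentage points (-4.58 to -1.40). With the whole last stretch in place of the threshold the direction turned, with 413 of the 2134 sites on 2L, 19.4% (17.7 to 21.1), in the stretch. That is 2.02 points (0.36 to 3.77) more of the stretch than of the lower numbers. The share on 3R was 2.64 points higher (0.70 to 4.65) above 11000 than below it, and 1.13 points higher (-0.74 to 3.08) with the whole stretch, where the interval holds 0.

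**Figure D1:**
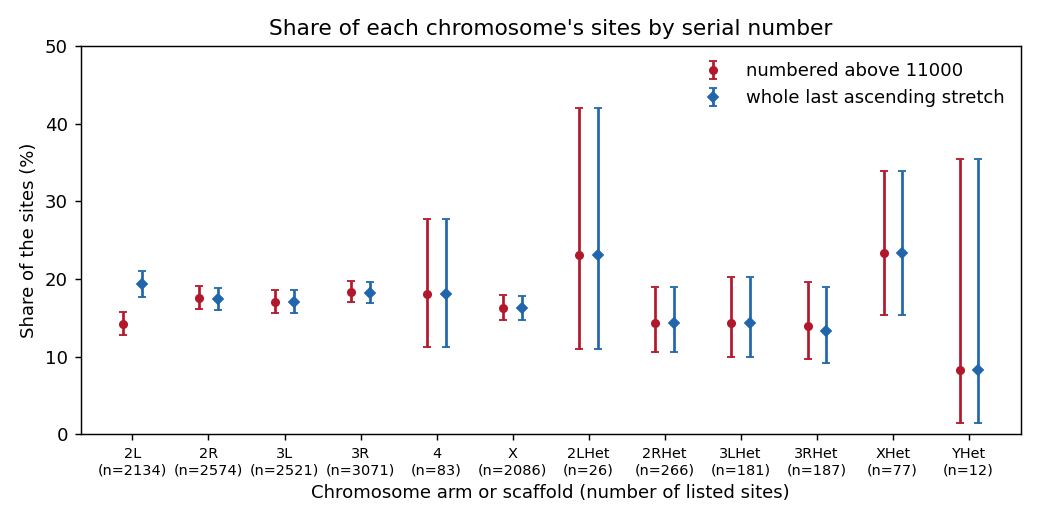
Share of each chromosome's listed sites (%, vertical axis) that are numbered above 11000 (red circles) or lie in the whole last ascending stretch of numbers (blue diamonds), with Wilson 95% intervals, for 6 chromosome arms and 6 Het scaffolds. The markers nearly coincide except on 2L, where the share is 14.2% by the threshold and 19.4% by the stretch.

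The scaffolds named Het in dm3 carry mapped heterochromatin, the repeat-rich and mostly silenced part of the genome, which a plasmid assay tests without its native chromatin. They held 115 of the highest-numbered sites, 5.18% of them, against 634 or 5.76% of the sites up to 11000, a difference of -0.58 points (-1.54 to 0.51). The 38 sites on 2RHet were 14.3% of that scaffold's sites, the 26 on 3LHet were 14.4% and the 26 on 3RHet were 13.9%. On XHet 18 of 77 sites were numbered above 11000, 23.4% (15.3 to 34.0), with 11 on the plus and 7 on the minus strand. All but 2 of these 18 fell into the scaffold's largest clusters, which also held most of its other sites. The clusters ran from 197687 to 203049, with 12 of 38 sites numbered above 11000, and from 189291 to 192698, with 4 of 21. On XHet, 12 of the 18 had a same-strand neighbour at most 100 bp away, 66.7% (43.7 to 83.7), against 32 of the scaffold's 59 other sites, 54.2% (41.7 to 66.3), a difference of 12.4 points (-13.5 to 33.6). 2LHet held 6 of the highest-numbered sites and YHet held 1.

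Along the arms the highest-numbered sites followed the density of the other sites. Windows of 1 Mb with at least 30 sites numbered 130, of which 107 lay outside 2L, and in these 107 the share of sites numbered above 11000 had a median of 17.0% (quartiles 14.8 and 19.5). The exact binomial interval of the share left out the list's 16.8% in 6 of the 107 windows, below it in 2 and above it in 4. Outside 2L the share was lowest on 3L at 24 to 25 Mb, with 4 of 49 sites (8.16%, exact interval 2.27 to 19.6), followed by 3LHet at 2 to 3 Mb with 3 of 35 (8.57%, 1.80 to 23.1), and on X at 18 to 19 Mb it was 10 of 114 (8.77%, 4.29 to 15.5). Over all windows, 2L included, it was highest on 3R at 4 to 5 Mb, with 25 of 85 sites (29.4%, 20.0 to 40.3), and on 2L at 17 to 18 Mb, with 15 of 51 (29.4%, 17.5 to 43.8), and 2L at 4 to 5 Mb followed with 27 of 97 (27.8%, 19.2 to 37.9). Across the 107 windows the number of these sites and of other sites had a Pearson r of 0.70 and a Spearman rho of 0.67, as a description, since neighbouring windows of an arm are not independent. The 6 windows of 2L from 10 to 16 Mb held none, for example 0 of 111 sites at 13 to 14 Mb (exact interval 0 to 3.27). This is the part of the arm whose positions come first as text.

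The widest stretches without a highest-numbered site were likewise on 2L, 6508 kb from 9947565 to 16455651 with 480 other sites inside and 621 kb from 992794 to 1614150 with 45. Both lie where the threshold divides the arm by text order. Elsewhere the widest was 402 kb on 3L, from 5180000 to 5582133, with 18 other sites, followed by 395 kb on X, from 11804130 to 12199304, also with 18. On 2R, 3L, 3R and X the median distance from one highest-numbered site to the next was 31.6 kb.

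The use of the strands was even. Of the highest-numbered sites 1128 lay on the plus and 1090 on the minus strand, 50.9% plus (48.8 to 52.9, exact two-sided binomial p = 0.432), against 49.9% plus among the sites up to 11000. None of the 12 chromosomes and scaffolds passed an exact binomial test after Benjamini-Hochberg adjustment, and none had an unadjusted exact p under 0.05. X came closest, with 187 of its 340 on the plus strand, 55.0% (49.7 to 60.2, adjusted exact p = 0.880), against 51.2% plus among its other sites. XHet had 61.1% plus (38.6 to 79.7) above 11000 and 72.9% plus up to 11000, a difference of -11.8 points whose interval, -36.3 to 10.6, holds 0.

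The screen of BAC fragments found the highest-numbered sites far less often than the other sites. The BAC list was taken as 34 regions, the stretches of it without a gap above 60 kb. These held 92 of the sites numbered above 11000, 4.15% of them, against 564 or 5.13% of those up to 11000. Of these 92 sites, 21 were in the BAC list at the same base and strand, 22.8% (Wilson interval 15.4 to 32.4), against 385 of 564, 68.3% (64.3 to 72.0), where the share over all sites in the regions was 61.9%. The difference was -45.4 points (Newcombe interval -53.7 to -35.1). It was seen on each of the 5 arms, from -60.4 points on 2R (2 of 17 sites against 70 of 97) to -38.4 points on 2L (4 of 16 against 78 of 123), and every arm's interval of the difference stayed below 0. Without any 1 of the 34 regions the share of the highest-numbered sites lay between 20.5% and 25%. The regions start and end at BAC sites, so lying at a region's edge is tied to being shared, in both groups. Sites 11005 and 11060 on 2L, both shared, lay at such an edge. The shares were not computed without the edges.

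A looser match hardly raised the share of the highest-numbered sites. Within 5 bp on the same strand 23 of the 92 had a BAC site and within 50 bp 24, against 437 and 457 of the 564 other sites. Of the 92, 42 had no BAC site on either strand within 1000 bp, 45.7% (35.9 to 55.8), against 72 of 564 or 12.8% (10.3 to 15.8). Among the sites not shared at the same base, this held for 42 of 71, 59.2% (47.5 to 69.8), against 72 of 179 or 40.2% (33.3 to 47.5), a difference of 18.9 points (5.20 to 31.6). The direction depended on the match. Among the sites with no same-strand BAC site within 50 bp it held for 42 of 68, 61.8% (49.9 to 72.4), against 72 of 107, 67.3% (57.9 to 75.4), a difference of -5.53 points (-19.9 to 8.63). The 92 sites lay in 29 of the 34 regions and 13 of these regions, with 38 of the sites, shared none of them. Most regions held few of the 92 sites, so this count is a description. Up to 8 lay in 1 region, on 2L from 4945728 to 5320796, where 2 of 8 were shared, against 27 of 44 other sites, and on 2R from 20161377 to 20304845, where 0 of 8 were shared, against 20 of 27.

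Sharing was lower in several steps over the upper part of the list. Of the sites in BAC regions 18 of 47 numbered above 10000 and up to 11000 were shared, 38.3% (25.8 to 52.6), and 16 of 42 in the 1000 numbers before them, 38.1% (25 to 53.2). Between 8000 and 9000 the share was 61.5% (32 of 52) and between 7000 and 8000 it was 60.4% (32 of 53). The 1000s from 4000 up to 7000 had 72.6%, 83.8% and 71.9%. The ascending stretch just before the last, with 1475 sites numbered 9396 to 10870, shared 21 of 64, 32.8% (22.6 to 45.0). The share above 11000 differed from that by -9.99 points (-24.2 to 4.03), so the highest-numbered sites could not be told from those of the preceding stretch at these counts. The stretch before that one, numbered 8330 to 9363, shared 21 of 43, 48.8% (34.6 to 63.2).

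**Figure D2:**
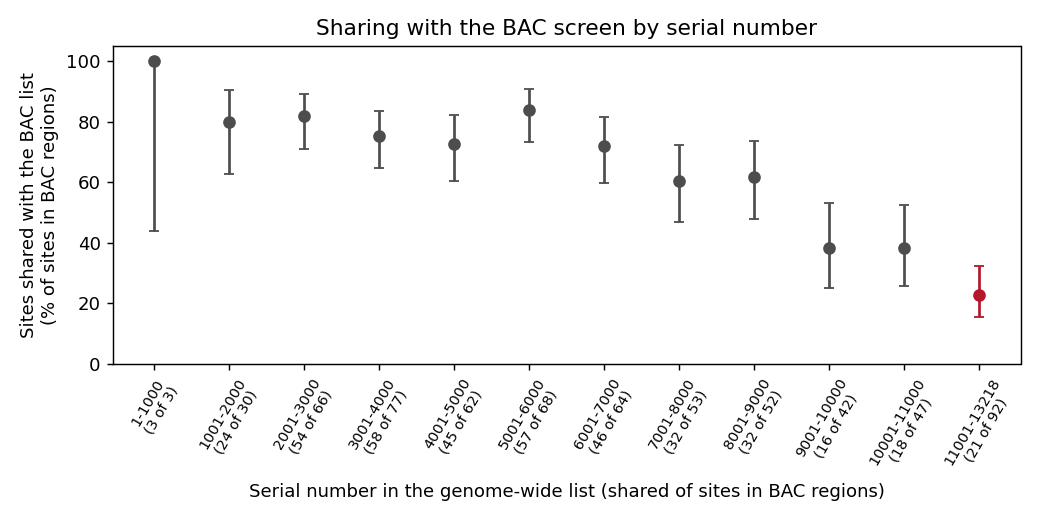
Share of genome-wide sites inside BAC regions that the BAC list holds at the same base and strand (%, vertical axis), with Wilson 95% intervals, by serial number in steps of 1000 and, in red, for the 92 sites numbered above 11000. The red share of 22.8% is the lowest of the series, below 38.3% in the preceding step.

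The 21 shared sites had higher numbers in the BAC list, which run up to 753, than all shared sites of lower genome-wide number together. Their BAC numbers had a median of 492 and ranged from 32 to 748, against a median of 270 (range 2 to 750) for the 385 shared sites numbered up to 11000 and of 407 (13 to 750) for the 201 of these numbered above 5000. The BAC list ends in a long ascending stretch of its own, numbers 624 to 752, and 8 of the 21 had a BAC number of at least 624, 38.1% (20.8 to 59.1), against 28 of 385 or 7.27% (5.08 to 10.3). The difference was 30.8 points (13.2 to 52.0). This did not set them apart from the preceding stretch of the genome-wide list, numbers 9396 to 10870, a comparison added after its values were seen. Of the 21 shared sites there 5 had a BAC number of at least 624, 23.8% (10.6 to 45.1), a difference of 14.3 points (-13.2 to 39.1), and their median BAC number was 531 (range 349 to 716), above that of the highest-numbered sites.

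On 2L the shared sites were 11194 at 4953135 on the minus strand with BAC number 342, 11197 at 5025367 on the plus strand with 651, 11005 at 16520205 on the minus strand with 635 and 11060 at 19380908 on the plus strand with 636. Arm 2R had 11588 at 3481074 with BAC number 662 and 11653 at 5901417 with 492, both on the plus strand. All 5 shared sites of 3L were on the minus strand, 11827 at 1166142 with BAC number 675, 12107 at 3808304 with 374, 12108 at 3825424 with 431, 12143 at 5659814 with 502 and 12186 at 7768463 with 296. Those of 3R on the plus strand were 12748 at 6114937 with BAC number 518, 12448 at 19149302 with 314, 12449 at 19185066 with 449 and 13211 at 25598674 with 268. On its minus strand lay 13207 at 6137331 with BAC number 32, 12750 at 6152987 with 726 and 12781 at 8239134 with 733. X had 13152 at 8034553 on the minus strand with BAC number 748, 13181 at 9510314 on the plus strand with 415 and 13212 at 15643210 on the plus strand with 318. Site 13207 had the lowest BAC number of the 21, and it was the first site numbered after the last stretch of the genome-wide list. Among the 201 shared sites numbered above 5000 and up to 11000 the lowest BAC number was 13.

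**Figure D3:**
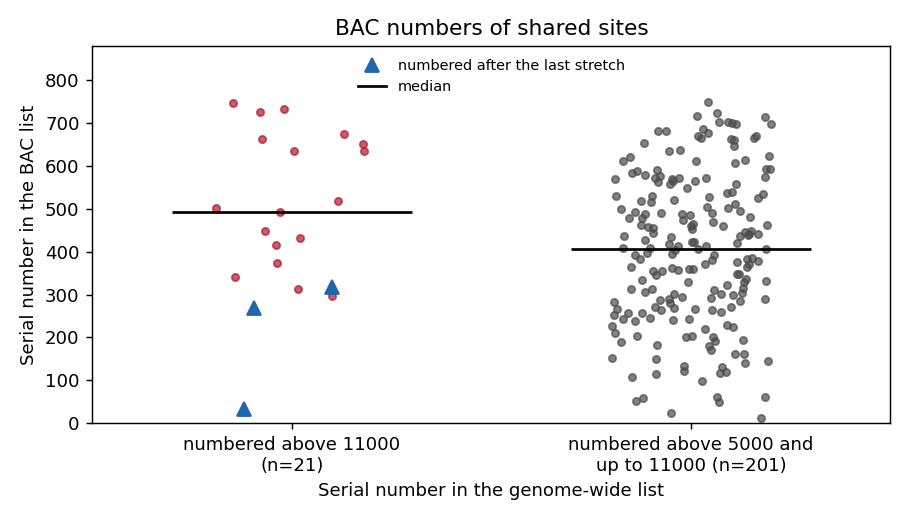
Serial number in the BAC list (vertical axis) of sites shared at the same base and strand, for the 21 sites numbered above 11000 (left) and 201 sites numbered above 5000 and up to 11000 (right), with black lines at the medians of 492 and 407. Blue triangles are the 3 sites numbered after the last ascending stretch, with BAC numbers 32, 268 and 318, and points are shifted sideways at random for visibility.

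Those 12 sites at the very end of the list lay in BAC regions more often than those inside the stretch, a comparison made after their values were seen. The regions start and end at BAC sites, so lying in a region is tied to being shared. Of the 12, 3 lay in BAC regions, 25% (8.89 to 53.2), and all 3 were shared (interval 43.9 to 100). Of the 2206 sites numbered above 11000 inside the stretch 89 lay in BAC regions, 4.03% (3.29 to 4.94), and 18 of these were shared, 20.2% (13.2 to 29.7). The 3 were 13207 and 13211 on 3R and 13212 on X. The others were 13208 at 1821464 on 3RHet, 13209 at 1109098 on 3R, 13210 at 18688796 on 2L, 13213 at 11428943 and 13214 at 4982778 on 2R, 13215 at 19102157 on X and the 3 highest-numbered sites named above. The numbers of these 12 sites do not follow the text order of the stretch before them.

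Most of the highest-numbered sites stood alone, as did most other sites of the list. There was no other listed site on either strand within 1000 bp of 1376 of them, 62.0%, against 6730 of 11000, 61.2%, a difference of 0.86 points (-1.38 to 3.05), and the median distance to the nearest other site was 1977 bp (quartiles 208 and 5768 bp), against 1994 bp (167 and 5658 bp) for the sites up to 11000. No site lay within 20000 bp of 74 of them, 3.34% (2.67 to 4.17), against 304 or 2.76% (2.47 to 3.09). A further 762 shared a cluster, with gaps of at most 1000 bp, with sites of lower numbers, and in 616 of those 681 clusters they were the only site numbered above 11000. The other 80 lay in 38 clusters made of highest-numbered sites alone, 35 pairs, 2 groups of 3 and 1 of 4. The highest-numbered sites were 16.8% of the list. Cluster counts were not made for other sites, so those given here are a description. The group of 4 was on 2R from 11297521 to 11298518, with minus-strand sites at 11297521, 11297554 and 11298518 and a plus-strand site at 11297659. One group of 3 lay at the start of 2RHet, all on the minus strand, at 69, 128 and 197. The other lay on X with plus-strand sites at 7805161, 7805541 and 7806493.

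Close neighbours on the same strand were slightly less frequent than around the other sites, and those on the opposite strand were not distinguishable. Within 100 bp on the same strand 283 of the 2218 sites had another site, 12.8% (11.4 to 14.2), against 1615 of 11000, 14.7% (14.0 to 15.4), where the share over the whole list was 14.4%. The difference was -1.92 points (-3.41 to -0.33). It came to -0.99 points (-2.59 to 0.69) when only sites numbered above 5000 were compared, and the first 1000 sites of the list had the highest share, 18.6% (16.3 to 21.1). The difference from all lower numbers thus did not hold against the middle of the list, and it also lost the threshold without 2L, at -1.60 points (-3.22 to 0.15). On the opposite strand 190 sites had a neighbour within 100 bp, 8.57% (7.47 to 9.80), against 900 or 8.18% (7.68 to 8.71), with 8.25% over the whole list and a difference of 0.38 points (-0.83 to 1.72). Same-strand neighbours were never closer than 22 bp, while opposite-strand neighbours came as close as 1 bp, in both groups.

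**Figure D4:**
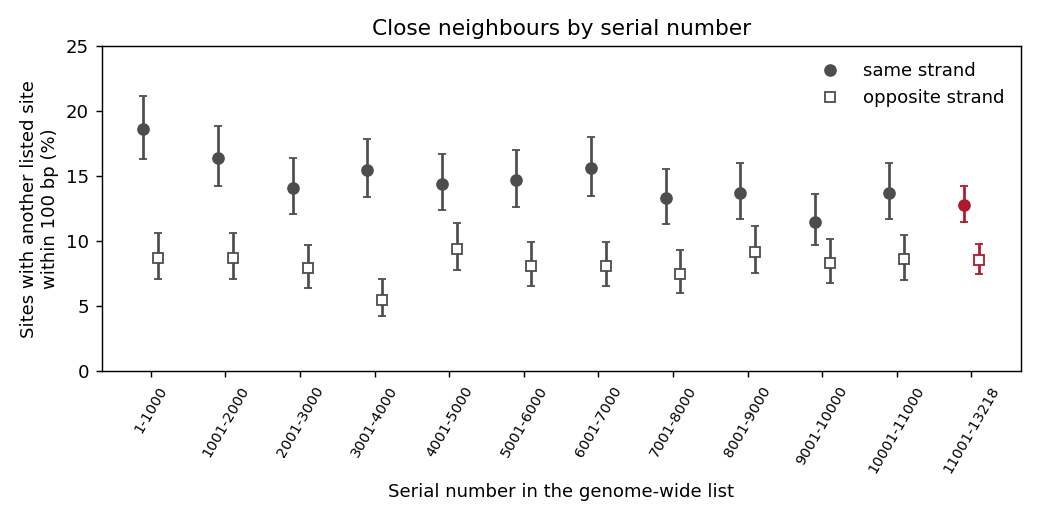
Share of sites with another listed site within 100 bp (%, vertical axis) on the same strand (filled circles) and on the opposite strand (open squares), with Wilson 95% intervals, by serial number in steps of 1000 and, in red, for the 2218 sites numbered above 11000. The same-strand share is 18.6% in the first step and 12.8% in red, and the opposite-strand share in red is 8.57%.

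The close neighbours of the highest-numbered sites were mostly numbered up to 11000, as were those of the other sites. Of the 283 same-strand neighbours within 100 bp 43, 15.2%, were themselves numbered above 11000, near the 16.8% of the list, and 137, 48.4%, were numbered up to 5000, where 37.8% of the list are. Around the sites up to 11000, 14.7% of the same-strand neighbours were numbered above 11000 and 41.0% up to 5000. The median number of the same-strand neighbour was 5296, against 6087 around the sites up to 11000. On the opposite strand the neighbour was numbered above 11000 in 26 of 190 cases, 13.7%, and up to 5000 in 82, 43.2%. Around the sites up to 11000 these opposite-strand shares were 18.4% and 35.3%. A site is not its own neighbour and low-numbered sites have more neighbours, so these shares are given as a description.

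The nearest same-strand neighbour lay more often downstream than upstream of a highest-numbered site, so the highest-numbered site was the first of the pair in the direction of transcription. At 22 to 250 bp, the range within which both can lie on 1 fragment, 209 neighbours were downstream and 148 upstream, 58.5% downstream (53.4 to 63.5, exact binomial p = 0.00146, Benjamini-Hochberg adjusted over both strands 0.00146). Around the sites up to 11000 there were 997 downstream and 1049 upstream, 48.7%, and the difference was 9.81 points (4.20 to 15.3). When 2 sites are each other's nearest, one sees its neighbour downstream and the other upstream, so the groups' shares are tied to each other. By distance, the counts downstream and upstream were 94 and 68 at 22 to 50 bp and 78 and 43 at 51 to 100 bp, but 18 and 17 at 101 to 150 bp and 19 and 20 at 151 to 250 bp. The excess was thus in the pairs up to 100 bp apart. This measure was chosen after its values were seen.

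Opposite-strand neighbours at 22 to 250 bp were mostly divergent, that is, upstream of the site and transcribed away from it. Of the highest-numbered sites 309 had an opposite-strand neighbour within 250 bp, and neighbours closer than 22 bp were left out of the counts below. At 22 to 250 bp, 162 were upstream and 97 downstream (convergent), so 37.5% were downstream (31.8 to 43.5, exact binomial p = 6.44e-05, adjusted 0.000129). The sites up to 11000 had 766 upstream and 432 downstream, 36.1%, and the difference of 1.39 points (-4.91 to 7.99) did not pass. At 101 to 150 bp there were 38 divergent and 14 convergent neighbours of highest-numbered sites and at 151 to 250 bp 48 and 19, while at 22 to 50 bp there were 32 and 26 and at 51 to 100 bp 44 and 38. Around the sites up to 11000 there were 128 divergent and 163 convergent neighbours at 22 to 50 bp. Their counts were 221 and 129 at 51 to 100 bp, 208 and 50 at 101 to 150 bp and 209 and 90 at 151 to 250 bp.

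Setting both groups against the same 5000 lowest-numbered sites removed that tie, and the highest-numbered sites then resembled those of the middle of the list. Within 250 bp on the same strand 200 of 2218 had a low-numbered site, 9.02% (7.89 to 10.3), against 545 of the 6000 sites numbered above 5000 and up to 11000, 9.08% (8.38 to 9.84), with 9.07% over both. The difference was -0.066 points (-1.42 to 1.38). On the opposite strand 143 had one, 6.45% (5.50 to 7.55), against 356 or 5.93% (5.36 to 6.56), with 6.07% over both and a difference of 0.51 points (-0.62 to 1.75). The low-numbered site on the same strand was downstream of 115 highest-numbered sites and upstream of 85, 57.5% downstream (50.6 to 64.1, exact binomial p = 0.0400, adjusted over both strands 0.0400), against 336 and 209, 61.7% (57.5 to 65.6), in the middle of the list. On the opposite strand it was downstream of 56 and upstream of 87, 39.2% downstream (31.5 to 47.3, exact binomial p = 0.0118, adjusted 0.0237), against 149 and 207, 41.9% (36.8 to 47.0). The offset profile of the highest-numbered sites peaked where the low-numbered site was 25 to 50 bp downstream, with 44 sites or 19.8 per 1000, against 146 sites or 24.3 per 1000 in the middle of the list. At the same distance upstream there were 23 sites, 10.4 per 1000, against 82 or 13.7 per 1000.

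**Figure D5:**
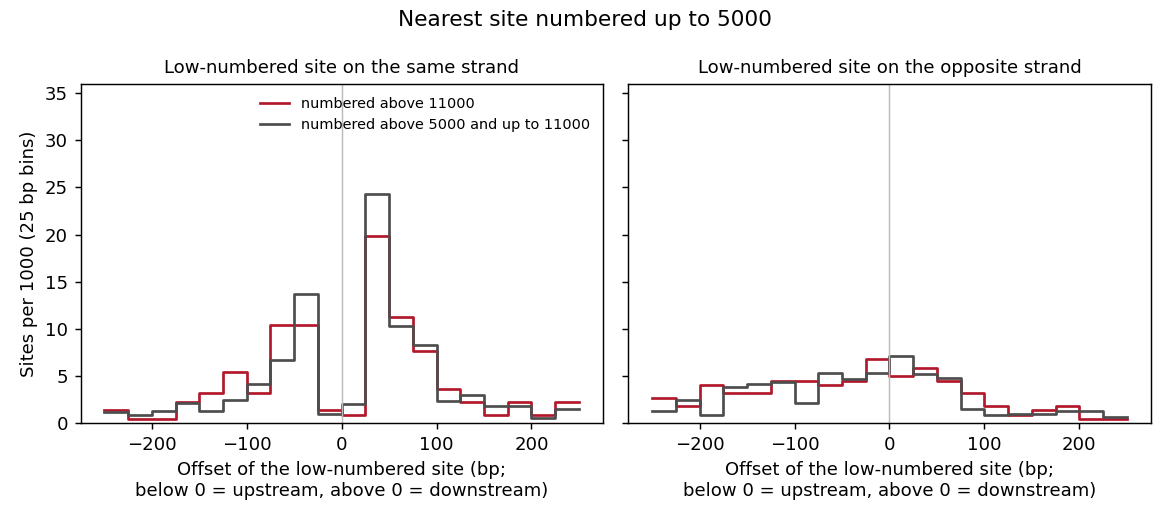
Number of sites per 1000 (vertical axis) whose nearest site numbered up to 5000 lies at a given offset (horizontal axis, bp in the direction of transcription, bins of 25 bp), on the same strand (left) and on the opposite strand (right), for 2218 sites numbered above 11000 (red) and 6000 numbered above 5000 and up to 11000 (grey). On the same strand both lines peak at 25 to 50 bp downstream, with 19.8 and 24.3 per 1000.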

How the data were processed

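As deposited by the authors, both files hold positions with a serial number and a strand, in no expression unit. Per the submitters' processing notes the build was dm3, with CASAVA 1.9.1 and Bowtie 0.12.9 named without a role. How sites were called, merged and numbered, and whether samples were pooled, was not stated in the sources used here. The end column was taken as the 1-based position. The 18 samples form 9 groups, and the 10 samples behind neither list were not used.

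Shares were given Wilson 95% intervals and differences of shares, always highest-numbered minus lower-numbered, Newcombe 95% intervals, called past the threshold when they leave out 0. Strand and side counts were tested with exact two-sided binomial tests, adjusted by Benjamini-Hochberg. Windows had exact binomial intervals. Distances count along the direction of transcription. Long ascending stretches have at least 40 sites. The code was tested on simulated positions. The tools were scipy 1.17.1 for tests, pandas 2.3.3 and numpy 2.4.6 for tables and matplotlib 3.10.9 for figures, in Python 3.11.15. The sites and measures were chosen with earlier results of these data known. Sites named are the 3 highest-numbered, 3 on each side of the threshold, all shared with the BAC list, the 5 clusters with the most highest-numbered sites (ties by fewest sites), and extreme windows and gaps. Windows and gaps outside 2L, and the 12 last sites, were added after their values were seen.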

Additional observations from a re-analysis of the deposited data

How the results depend on the processing

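No paired analysis was possible because neither list separates the samples. No replicate could be left out either. Of 63 alternatives for 11 results, 50 kept the direction and the side of the threshold, among them all those of strand use and of the side of the same-strand neighbour. The 50 also include the shares above 12000 on 2L, -16.6 points, and on 3R, 23.5 points. Text order puts 2L first and 3R late in the last stretch, so both directions were set beforehand and lend no support. The lower sharing with the BAC list lay between -54.9 and -38.8 points in 8 of its 9 alternatives and was -9.99 points, no longer past the threshold, against the preceding stretch alone. The same-strand neighbour difference of -1.92 points was -0.23 with numbers above 12000, -1.60 without 2L, -1.53 against numbers above 1000 and -0.99 against numbers above 5000, none of them past the threshold. Text order leaves no site of the last stretch on 2L, 2LHet, 2R or 2RHet above 12000, and only a part of those on 3L. That alternative therefore also changes the chromosomes. The opposite-strand difference was -0.13 at 50 bp. The same-strand difference in low-numbered neighbours was 0.44 with numbers up to 2000, 0.22 on the main arms and 0.11 with the whole last stretch, none past the threshold. The downstream share of opposite-strand neighbours was 45.7% within 100 bp, not past the threshold. The share on Het scaffolds was 0.066 points higher above 12000, where 2LHet and 2RHet have no site of the last stretch. With the whole stretch the share on 2L was 2.02 points higher and past the threshold, and that on 3R 1.13 points higher and not past it. The alternatives without 2L, those limiting the comparison and the neighbour's side with all its alternatives were chosen after seeing the data; the cause of the changes was not tested. Depth is unknown, and 92 sites in BAC regions limit the comparison between screens.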

Other observations

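The 12 sites at the end of the list were not alone in standing between long ascending stretches of numbers. From number 3940 on, where the last 19 long stretches of the genome-wide list begin, 271 sites were numbered between or after the stretches and 9008 inside them. Of the 271, 91 lay in BAC regions, 33.6% (Wilson 95% interval 28.2 to 39.4), against 393 of the 9008, 4.36% (3.96 to 4.80). Of those in the regions 82 of the 91 were shared with the BAC list at the same base, 90.1% (82.3 to 94.7), against 186 of 393, 47.3% (42.4 to 52.3). The regions start and end at BAC sites, so lying in a region is tied to being shared. At the other end of the list, 3 of the 1000 lowest-numbered sites lay in BAC regions, 0.30%, and 30 of the next 1000, 3.0%, against 4.15% of the sites numbered above 11000. These values were found by looking through the list, and their cause was not tested.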
